A study of Homo sapiens with 8 samples.

Results

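The 10 genes examined here encode enzymes that build, lengthen, desaturate and activate fatty acids: FASN, SCD, ACACA, ACLY, ACSS2, FADS1, FADS2, ELOVL6, ACSL3 and ACSL5. They were chosen by name as enzymes known as targets of SREBP-1, with earlier results of these data known. All 10 were found among the 38637 genes of the deposited table. All 8 RNA-seq libraries were labelled as SW1990, an established human pancreatic adenocarcinoma cell line, with 2 libraries in each of 4 groups. Vector cells carried the empty vector and EBF2-OE cells overexpressed EBF2, a transcription factor. Vehicle cells were labelled as vehicle and titled Mock, and what they received is not stated. GSK-LSD1 cells received an inhibitor of the histone demethylase KDM1A (LSD1), for which the labels state 2000 µM while the methods give no dose for RNA-seq. Vector and EBF2-OE were each deposited as libraries numbered 2 and 3, Vehicle and GSK-LSD1 as libraries numbered 1 and 2, and nothing states that they were separate cultures, so the p-values measure only the spread between these libraries. EBF2-OE was compared with Vector, GSK-LSD1 with Vehicle, and the Vector control with the Vehicle control. How EBF2 was driven in these cells, and whether they were 1 clone or a pool, is not given in the sources used here.

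De novo lipogenesis turns cytosolic acetyl-CoA into long-chain fatty acids. ACLY splits citrate and ACSS2 activates acetate, and both supply acetyl-CoA. ACACA carboxylates it to malonyl-CoA, FASN assembles palmitate, ELOVL6 lengthens palmitate, and SCD inserts the double bond that makes oleate and palmitoleate. FADS1 and FADS2 desaturate polyunsaturated fatty acids, and ACSL3 and ACSL5 couple long-chain fatty acids to coenzyme A. Many of these genes are driven by the transcription factor SREBP-1 (SREBF1), which SCAP escorts from the endoplasmic reticulum and INSIG1 and INSIG2 retain there. SREBP-2 (SREBF2) drives the sterol genes, and MLXIPL (ChREBP) and NR1H3 (LXR alpha) are further activators of lipogenesis. Pancreatic cancer cells are known for active lipogenesis.

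Each library held between 20453362 and 27054876 reads counted on genes. EBF2 had 28 counts in each Vector library, and 5818 and 90100 in EBF2-OE 2 and EBF2-OE 3, so both overexpressing libraries lay above both controls but at very different levels. The epithelial keratins KRT8, KRT18 and KRT7 were abundant (513.6 to 2677 CPM). KRT19, EPCAM and CDH1, which also define epithelial cells, were near absent (0 to 2.17 CPM). Carcinoma cells of epithelial origin usually express these genes, so their near absence goes against the label, and the identity of the cells was not tested. The summed CPM of 6 epithelial markers was 5222 to 5404 in Vehicle and 3960 to 4066 in GSK-LSD1. It was 3615 to 3711 in Vector and 4263 to 4758 in EBF2-OE. The sum of 10 markers of other cell types was 95.9 to 129 over all groups, with CD3E and ADIPOQ at 0. The fibroblast markers COL1A1 (69.8 to 103 CPM) and COL1A2 (12.8 to 20.4 CPM) were the highest of these 10. Of the 4 epithelial and 6 other markers tested, KRT7 and the endothelial CDH5 were called lower in GSK-LSD1 by the rule given below, beside 2.04% of all genes. KRT18 and CDH5 were called lower in Vector against Vehicle, beside 10.2%. Without the fold limit 3 of the 4 epithelial markers were lower in GSK-LSD1 (edgeR adjusted p under 0.05), beside 8.87% of all genes. Mean KRT8 went from 2631 CPM in Vehicle to 2140 CPM in GSK-LSD1, and KRT18 from 1807 to 1328 CPM. In such bulk RNA, fewer cells of a type and less RNA per cell cannot be told apart.

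Per transcript length, the 10 genes fell into abundant and scarce ones. The levels between genes are given in TPM, which divides the counts by gene length. SCD had the highest median over the 8 libraries, 789 TPM (range 360 to 845), followed by FASN with 459 TPM (394 to 913), ACLY with 355 TPM (244 to 443) and FADS1 with 244 TPM (226 to 317). ACSS2 (40.2 to 121 TPM), ACSL3 (58.3 to 73.2 TPM), ACACA (50.4 to 74.4 TPM) and FADS2 (34.8 to 52.5 TPM) each overlapped the next in this order. ACSL5 (0.955 to 2.76 TPM) and ELOVL6 (0.649 to 1.28 TPM) were lowest. Over the 8 libraries of all groups, the ranges of neighbours in this order overlapped, with the exception of FADS1 over ACSS2 and FADS2 over ACSL5. Within a group neighbours could be apart. ACACA and FADS2 had mean TPM of 51.6 ± 1.68 and 35.4 ± 0.81 in Vehicle (SD, n = 2), and 70.4 ± 5.59 and 37.0 ± 1.79 in GSK-LSD1. The order of SCD and FASN also changed between groups, since in Vehicle both FASN libraries lay above both SCD libraries (mean TPM 445 ± 21.6 against 363 ± 5.17, SD, n = 2) and in Vector below them (440 ± 24.7 against 759 ± 10.9).

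**Figure D1:**
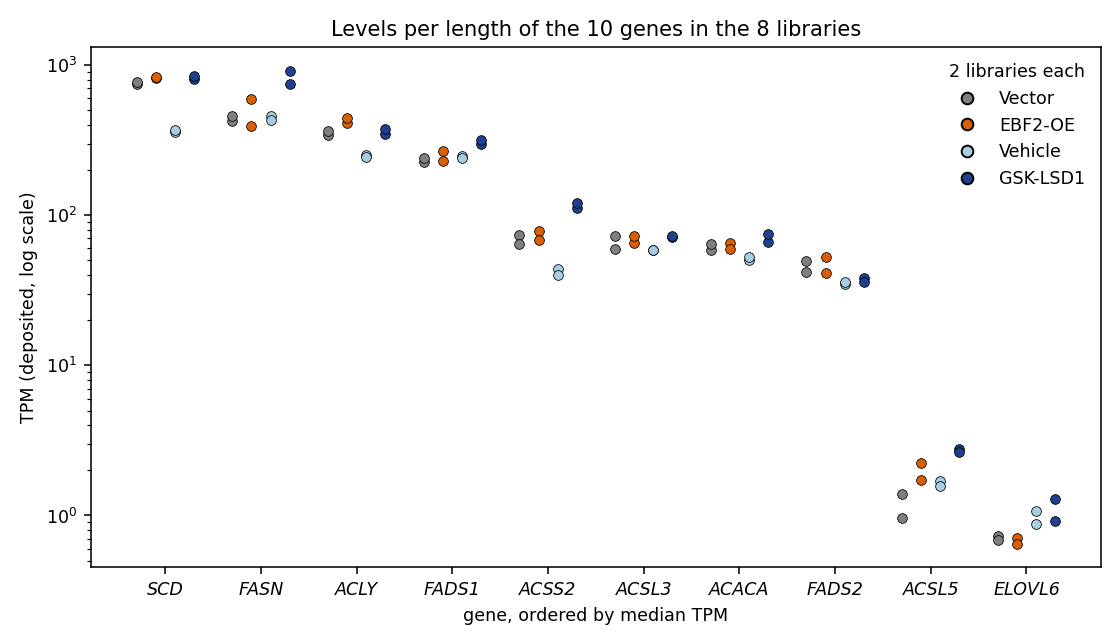
Deposited TPM of the 10 genes (log axis), ordered by their median over the 8 libraries, with 1 point per library coloured by group. SCD, FASN, ACLY and FADS1 stand above 200 TPM, and ACSL5 and ELOVL6 stay under 3 TPM in every library.

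The genes lie apart in the genome (hg38) except for FADS1 (chr11:61799627-61817003, minus strand) and FADS2 (chr11:61816203-61867354, plus strand), which overlap by 801 bases on opposite strands. FASN (chr17:82078338-82098303), ACACA (chr17:37084992-37406836) and ACLY (chr17:41866916-41930542) lie on the minus strand of chromosome 17. SCD (chr10:100347233-100364826) and ACSL5 (chr10:112374116-112428376) lie on the plus strand of chromosome 10. ACSS2 is at chr20:34874942-34927962, ELOVL6 at chr4:110045846-110199199 and ACSL3 at chr2:222861036-222944639. The library kit does not mark strand and none of the sources used here states a strand setting, so strand does not separate a gene from an overlapping partner. The overlaps are of whole gene spans, introns included, and how many exon bases they hold was not examined. By the counts this could matter most for ACSL5, which had 28 to 95 counts. Its span shares 3966 bases with that of ZDHHC6, a gene of the other strand with 1067 to 1530 counts. Whether ZDHHC6 reads entered the ACSL5 count was not tested.

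The promoter windows of SCD, ACSS2 and ACLY are shown because these genes had their lowest values in Vehicle and hold both motifs described below. They were picked after the matches were seen, and of the other genes lowest in Vehicle ACACA holds the GC box alone and FADS2 neither motif. Each sequence is the 250 bases before the RefSeq start (GRCh38.p14, the farthest upstream where a gene has several, as ACSS2 and ACLY do), read 5′ to 3′ on the gene's strand, and capitals mark CCAAT (the CCAAT box) and GGGCGG (the GC box) on either strand. The SCD sequence is chr10:100346983-100347232 (plus strand), the ACSS2 sequence chr20:34874739-34874988 (plus strand), and the ACLY sequence chr17:41919023-41919272 (minus strand). The ACLY sequence lies inside the span that the deposited file gives for ACLY. The last bases of the ACSS2 sequence also lie inside the deposited ACSS2 span, which starts at 34874942.
SCD: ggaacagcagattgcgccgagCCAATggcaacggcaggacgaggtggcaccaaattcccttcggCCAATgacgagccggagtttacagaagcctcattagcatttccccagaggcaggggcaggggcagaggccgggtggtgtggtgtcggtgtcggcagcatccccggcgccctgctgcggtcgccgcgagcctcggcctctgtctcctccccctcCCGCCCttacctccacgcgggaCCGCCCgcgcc
ACSS2: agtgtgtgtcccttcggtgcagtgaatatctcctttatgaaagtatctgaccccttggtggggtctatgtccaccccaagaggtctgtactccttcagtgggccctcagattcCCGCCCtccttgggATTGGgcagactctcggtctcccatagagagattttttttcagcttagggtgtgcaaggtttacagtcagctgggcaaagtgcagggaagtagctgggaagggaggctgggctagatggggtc
ACLY: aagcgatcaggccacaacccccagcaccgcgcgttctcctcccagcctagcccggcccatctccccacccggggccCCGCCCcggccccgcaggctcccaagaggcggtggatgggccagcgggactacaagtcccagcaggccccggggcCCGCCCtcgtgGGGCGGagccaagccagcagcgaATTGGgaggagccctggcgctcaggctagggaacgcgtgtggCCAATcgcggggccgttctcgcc

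RefSeq windows from 250 bases before to 50 after the start were found for 9 of the 10 genes. CCAAT was present in 4 of the 9 (SCD, ACLY, ACSS2 and ACSL3), against 35.7% of all 27305 windows. GGGCGG was present in 7 of the 9 (SCD, ACACA, ACLY, ACSS2, FADS1, ELOVL6 and ACSL3), against 44.5% of all windows. The sterol regulatory element letters TCACNCCAC (1.13% of all windows) and the E-box CACGTG (7.41%) were in none of the 9. Both strands were searched, and no motif overlaps another in the bases printed. A match is a description of these letters and not a binding site.

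**Figure D2:**
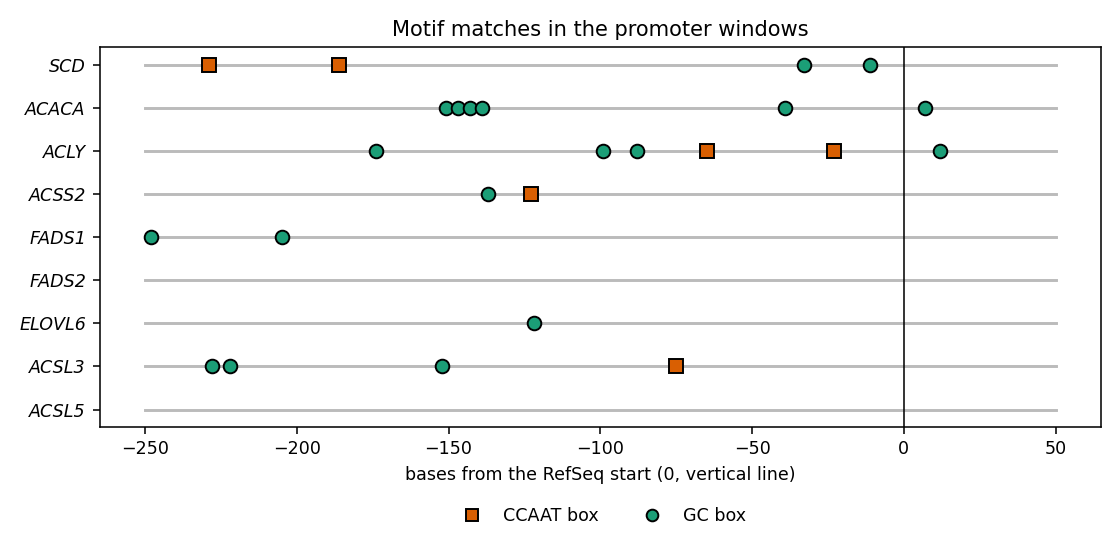
Positions of CCAAT and GC box matches on either strand in the promoter windows of the 9 genes with a RefSeq window, in bases from the start (vertical line). SCD holds 2 CCAAT boxes more than 180 bases upstream, whereas both of ACLY lie within 65 bases of the start.

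GSK-LSD1 was compared with Vehicle to ask which of these genes differ in the treated libraries. The labelled dose is above every dose of the paper's Western blot series. Whether a change goes through KDM1A was not tested. ACSS2, SCD, FASN and ACSL5 rose, the first 3 of them by about 1.90-fold to 2.84-fold. A gene was called when its fold change exceeded 1.5 and its adjusted p-value (edgeR's quasi-likelihood test, Benjamini-Hochberg over all genes tested) was under 0.05. By this rule 4 of the 10 genes were called higher and 0 lower, while 2.53% of all 16059 genes tested were called higher and 2.04% lower. Without the fold limit 8 of the 10 were higher at an adjusted p under 0.05, against 9.86% of all genes. In 9 of the 10 both GSK-LSD1 libraries lay above both Vehicle libraries, which held for 30.0% of all genes. Since the 10 genes were chosen with earlier results of these data known, these shares describe them and do not test them as a set. The median log2 fold change of the 10 was 0.52, and that of all genes tested -0.01.

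Among the suppliers of acetyl-CoA, ACSS2 had the largest change of the 10. Its level, in CPM (counts scaled to 1 library size after TMM normalization), was 54.2 and 48.9 in Vehicle and 143 and 150.2 in GSK-LSD1. All treated values were far above the controls, and the log2 fold change was 1.505 (SE 0.063, adjusted p = 3.27e-07 by edgeR, 2.84-fold). ACLY had 443.8 and 418 CPM in Vehicle and 625 and 654 CPM in GSK-LSD1. The groups did not overlap, but the 1.48-fold difference (log2 0.57, SE 0.048, edgeR adjusted p = 4.07e-05) was just under the fold limit. Without Vehicle 1 or without GSK-LSD1 1 it was just over it, at 0.61 and 0.60 on the log2 scale.

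Along the synthesis path itself, ACACA, which makes malonyl-CoA, had 222 and 227 CPM in Vehicle and 301 and 327 CPM in GSK-LSD1. The difference was 0.48 on the log2 scale (SE 0.055, edgeR adjusted p = 2.41e-04), under the fold limit with no overlap. FASN had 1513 and 1379 CPM in Vehicle and 2515 and 2999 CPM in GSK-LSD1. It rose by 0.93 on the log2 scale (SE 0.071, edgeR adjusted p = 2.19e-05), although its treated libraries differed more from each other than those of SCD did. ELOVL6 overlapped between the groups, since Vehicle gave 58 and 76 counts and GSK-LSD1 gave 57 and 77. Its log2 fold change was 0.20 with a 95% interval from -0.28 to 0.68, which includes the fold limit of 1.5 (0.58 on the log2 scale).

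Among the desaturases, SCD had 727 and 724 CPM in Vehicle and 1685 and 1707 CPM in GSK-LSD1. The libraries of each group lay close together, and SCD rose 2.33-fold (log2 1.22, SE 0.038, edgeR adjusted p = 3.34e-08). FADS1, the delta-5 desaturase, had 432 and 409 CPM in Vehicle and 535 and 555 CPM in GSK-LSD1, a log2 difference of 0.37 (SE 0.048, edgeR adjusted p = 5.37e-04) that was under the fold limit. FADS2, the delta-6 desaturase, had 48.1 and 48.5 CPM in Vehicle and 54.3 and 49.3 CPM in GSK-LSD1. Its log2 difference of 0.10 did not pass the test (edgeR adjusted p = 0.354), and its 95% interval from -0.05 to 0.25 lies below the fold limit.

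Both acyl-CoA synthetases were higher in GSK-LSD1, at very different levels. ACSL3, an enzyme of the endoplasmic reticulum and lipid droplets, had 127 and 122 CPM in Vehicle and 157 and 156 CPM in GSK-LSD1, a log2 difference of 0.33 (SE 0.049, edgeR adjusted p = 0.00132) that was under the fold limit. ACSL5 had 62 counts in each library of Vehicle and 95 and 87 of GSK-LSD1, and rose by 0.75 on the log2 scale (SE 0.18, edgeR adjusted p = 0.0167). The ACSL5 call rests on these low counts, and it was lost by DESeq2 (adjusted p = 0.160), in 1 fit over all 8 libraries (adjusted p = 0.279) and without GSK-LSD1 1 (0.123) or GSK-LSD1 2 (0.0749). FASN also lost its call in the fit over all 8 libraries (edgeR adjusted p = 0.0660).

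**Figure D3:**
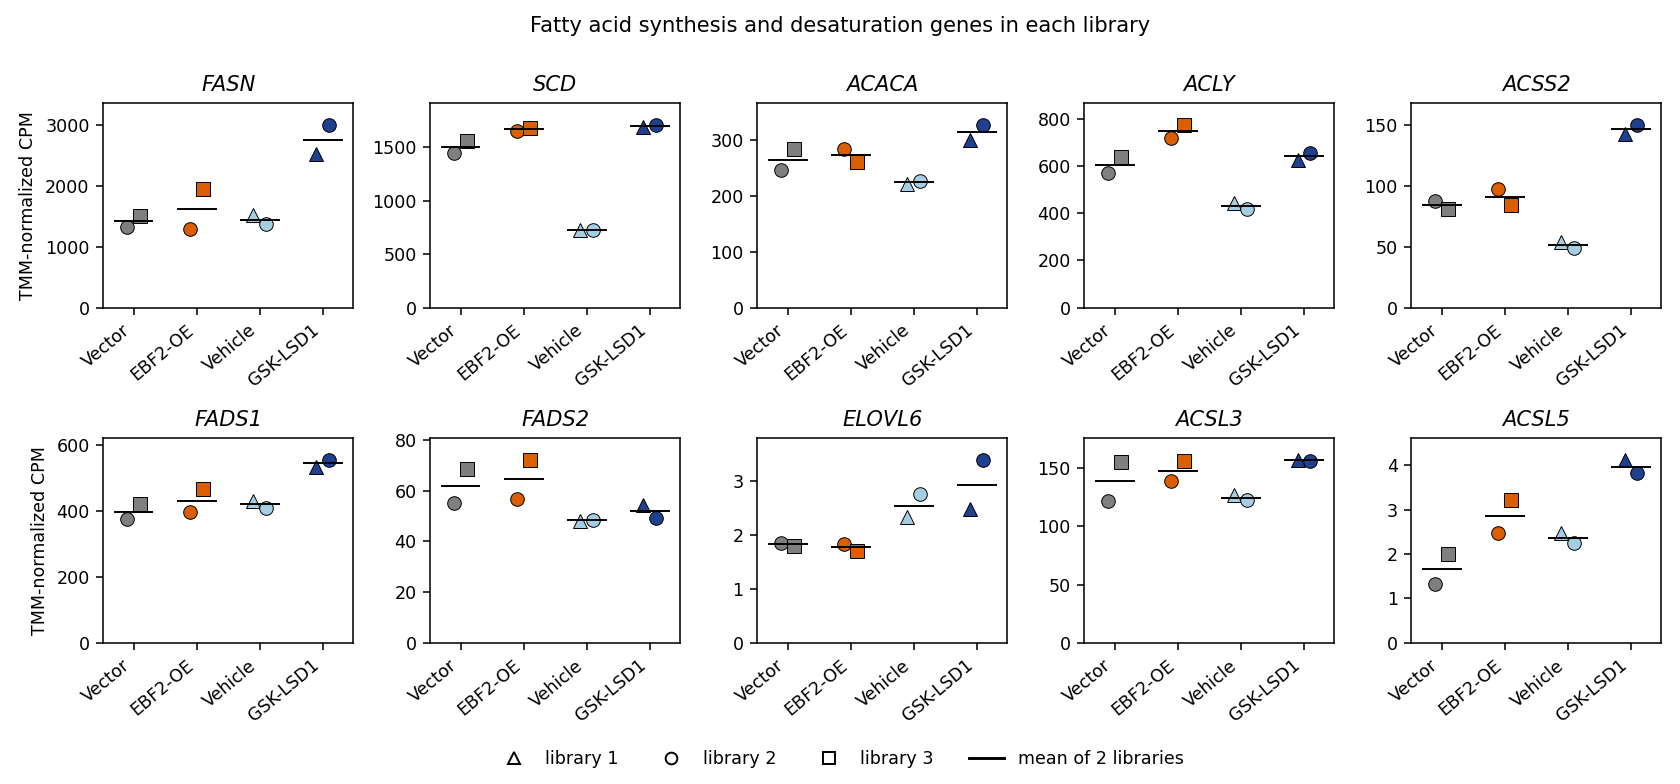
TMM-normalized CPM of each of the 10 genes in the 8 libraries, with the group on the x axis, 1 symbol shape per library number and a line at the mean of 2 libraries (y axes start at 0). SCD, ACLY, ACSS2, ACACA and FADS2 are lowest in Vehicle. FASN, FADS1 and also ACSS2 stand out in GSK-LSD1, with the other groups at or below 1940.1 CPM for FASN and 466 CPM for FADS1.

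The 2 controls were then compared with each other, because a difference between them sets the level against which each treatment was read. Of the 10 genes, 2 were called higher in Vector than in Vehicle (SCD and ACSS2) and 0 lower, while 5.79% of all 16019 genes tested were called higher and 10.2% lower. Whether the Vector and Vehicle libraries come from 1 experiment is not given in the sources used here, so construct, vehicle and experiment cannot be told apart here. This comparison shares its Vehicle libraries with GSK-LSD1 against Vehicle, so the values of both are given side by side and no likeness is drawn from them. Both Vector libraries lay above both Vehicle libraries for 5 of the 10 genes (SCD, ACACA, ACLY, ACSS2 and FADS2), against 35.6% of all genes, and below them for 2 (ELOVL6 and ACSL5), against 35.3%. The median log2 fold change was 0.19 over the 10 genes and 0.00 over all genes tested.

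SCD had 1447 and 1551 CPM in Vector against 727 and 724 CPM in Vehicle, a 2.06-fold difference (log2 1.04, SE 0.065, edgeR adjusted p = 0.00577) beside the 2.33-fold one of GSK-LSD1. ACSS2 had 87.9 and 80.7 CPM in Vector, 1.63-fold above Vehicle (log2 0.71, SE 0.10, edgeR adjusted p = 0.0118) beside 2.84-fold in GSK-LSD1. ACLY had 571 and 639 CPM in Vector, and was 0.49 higher on the log2 scale (SE 0.080, edgeR adjusted p = 0.0147), under the fold limit, beside 0.57 in GSK-LSD1. These 3 genes, and also ACACA and FADS2, had both of their lowest values of all 8 libraries in Vehicle. FASN showed another pattern, with 1323 and 1505 CPM in Vector overlapping the Vehicle values and a log2 difference of -0.04 (95% interval -0.25 to 0.18, edgeR adjusted p = 0.775) beside 0.93 in GSK-LSD1. FADS1 was alike in this respect, with 376 and 421 CPM in Vector and a log2 difference of -0.08 (95% interval -0.28 to 0.12) beside 0.37.

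The other 5 genes did not pass the test between the controls. ACACA was 0.24 higher in Vector on the log2 scale (edgeR adjusted p = 0.0947) and FADS2 0.35 higher (0.0843). ACSL3 differed by 0.15, with overlapping groups. The scarce ELOVL6 and ACSL5 had log2 differences of -0.48 and -0.50 with wide 95% intervals (-1.10 to 0.14 and -1.24 to 0.24). The call of SCD depended on Vehicle 1, and that of ACSS2 on both Vehicle libraries. Without Vehicle 1 the adjusted p-values were 0.0580 and 0.103 and 0 of the 10 genes were called (12 genes in all, 2 higher and 10 lower), and without Vehicle 2 ACSS2 was lost (0.114) and 1 gene was called (34 higher and 201 lower in all). The log2 differences moved little, from 1.00 to 1.09 for SCD and from 0.63 to 0.78 for ACSS2.

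**Figure D4:**
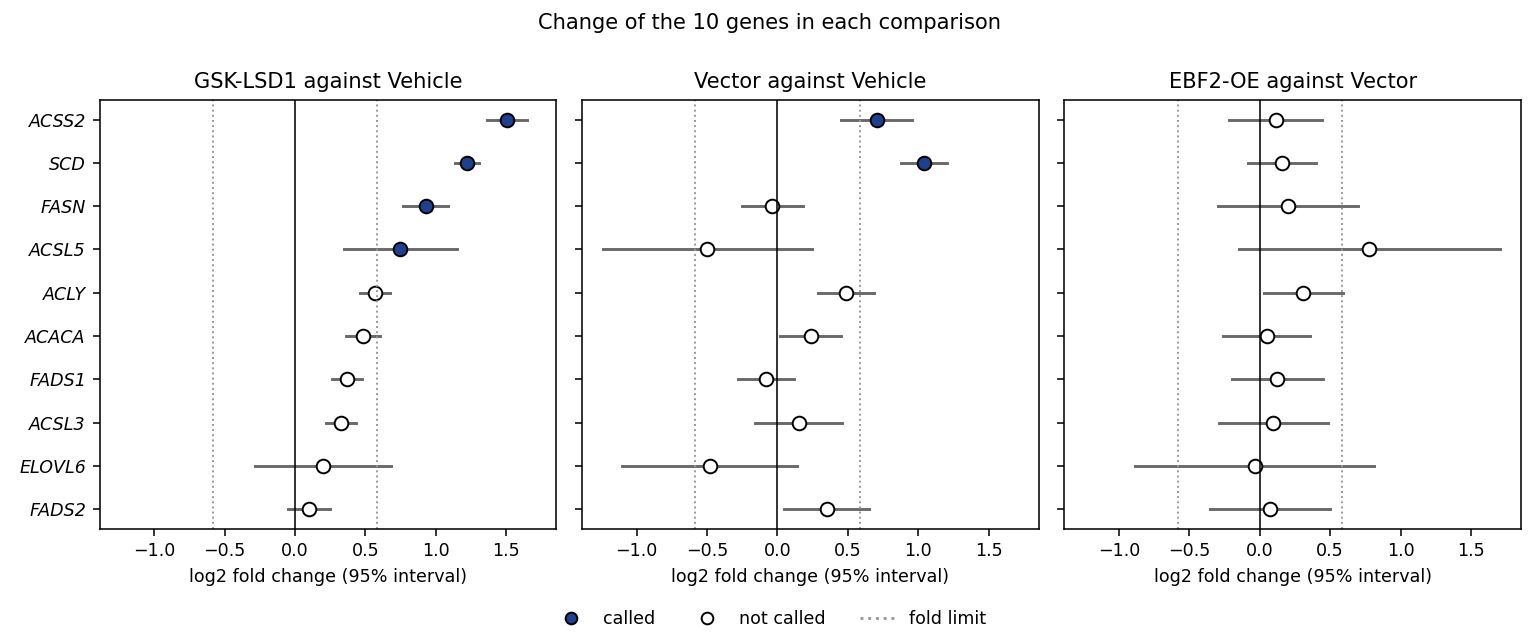
Log2 fold change of each of the 10 genes with its 95% interval (x axis) in the 3 comparisons, filled where called and with dotted lines at the fold limit of 1.5. The intervals of ACSS2, SCD and FASN lie above the fold limit in GSK-LSD1, only SCD does so in Vector against Vehicle, and no gene is called in EBF2-OE.

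EBF2-OE was compared with Vector to ask whether raised EBF2 changes these genes. None of the 10 was called, and 0% of all 15560 genes tested were called higher by edgeR, where even EBF2 did not pass (log2 10.75, SE 1.55, adjusted p = 1.00), with 289 CPM in EBF2-OE 2 and 4028 CPM in EBF2-OE 3. EBF2 passed with the replicate number as a block (log2 10.20, edgeR adjusted p = 8.84e-04), without a low-count filter and with DESeq2 (adjusted p = 9.83e-09). At an unadjusted p under 0.05, 208 genes differed, among them 1 of the 10 (ACLY), and DESeq2 called 6 genes higher and 1 lower, none of the 10. The spread between replicates was wider here than in GSK-LSD1, with a biological coefficient of variation of 19.0% against 5.87%. In 3 of the 10 genes (SCD, ACLY and ACSL5) both EBF2-OE libraries lay above both Vector libraries, against 12.1% of all genes. The median log2 fold change was 0.12 over the 10 genes and 0.00 over all genes.

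SCD had 1646 and 1681 CPM in EBF2-OE, above the 1447 and 1551 CPM of Vector by 0.16 on the log2 scale (95% interval -0.09 to 0.40). ACLY had 718 and 773 CPM in EBF2-OE, 0.31 above Vector on the log2 scale (95% interval 0.03 to 0.59, unadjusted p = 0.0357 by edgeR). ACSL5 had 50 and 72 counts in EBF2-OE against 28 and 47 in Vector, a log2 difference of 0.78 with a 95% interval from -0.15 to 1.71. These 3 genes were higher in both EBF2-OE libraries than in both Vector libraries, by 0.16 to 0.78 on the log2 scale, without passing the test over all genes.

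FASN differed between the EBF2-OE libraries themselves. It had 1284 CPM in EBF2-OE 2, below both Vector libraries, and 1940.1 CPM in EBF2-OE 3, above them, and EBF2-OE 3 is also the library with 90100 EBF2 counts. Its log2 difference was 0.20 (95% interval -0.30 to 0.70), and without EBF2-OE 3 it was -0.14. SREBF1 followed the same order, with 236 CPM in EBF2-OE 2 and 382 CPM in EBF2-OE 3, around the 249 and 267 CPM of Vector. Library 3 over library 2 gave a log2 ratio of 0.19 for FASN in Vector and 0.60 in EBF2-OE, and what the numbers stand for was not tested.

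The remaining genes overlapped between EBF2-OE and Vector. ACSS2 had 97.6 and 84.0 CPM in EBF2-OE (log2 difference 0.11, 95% interval -0.22 to 0.44), and ACACA 285 and 261 CPM (0.05, -0.26 to 0.35). FADS1 differed by 0.12 on the log2 scale (-0.20 to 0.45), FADS2 by 0.07 (-0.35 to 0.50) and ACSL3 by 0.10 (-0.29 to 0.48). ELOVL6 differed by -0.04, with an interval from -0.89 to 0.81. The upper bounds for ACSS2, SCD, ACACA, FADS1, FADS2 and ACSL3 lie under the fold limit of 1.5 (0.58 on the log2 scale), and those for FASN, ACLY, ELOVL6 and ACSL5 do not.

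Whether the GSK-LSD1 effect was larger than the EBF2-OE effect was tested as the difference of both log2 fold changes in 1 fit over the 8 libraries. No gene of the 10 passed, and none of all 16558 genes did with edgeR, whose smallest adjusted p was 0.0514, although 1268 genes had an unadjusted p under 0.05. The difference was 1.40 for ACSS2 (SE 0.15) and 1.07 for SCD (SE 0.11), both at this adjusted p of 0.0514, and 0.74 for FASN (SE 0.26, adjusted p = 0.534). DESeq2 called the difference for ACSS2 and SCD. The other 7 differences lay between -0.02 for ACSL5 and 0.45 for ACACA.

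The other genes of lipid metabolism were followed through 8 lists of 87 genes in all, ordered here by role. These lists too were chosen with earlier results of these data known, so their shares beside those of all genes are a description. Over all genes tested, 2.53% were called higher and 2.04% lower in GSK-LSD1 against Vehicle. In Vector against Vehicle these shares were 5.79% and 10.2%. Of 12 regulators tested, 2 rose and 0 fell in GSK-LSD1. INSIG1 went from 95.2 and 76.7 CPM in Vehicle to 161 and 168 CPM (log2 0.94, SE 0.083, edgeR adjusted p = 5.29e-05), and MLXIPL from 5.29 and 5.42 to 12.1 and 14.1 CPM (log2 1.28, SE 0.13, edgeR adjusted p = 1.16e-04). The RNAs of the SREBPs differed by 0.17 for SREBF1 (edgeR adjusted p = 0.175) and 0.17 for SREBF2 (0.0401, under the fold limit). SREBF1 had 362 and 297 CPM in Vehicle, and its log2 difference ranged from 0.03 to 0.32 when each library was left out. SCAP (-0.04), INSIG2 (0.08) and NR1H3 (0.14) did not pass the test. MLXIPL lost this call in the fit over all 8 libraries (0.0661). Against Vehicle, Vector had 1 of 12 regulators called lower, MLXIPL (-0.89, edgeR adjusted p = 0.0439), near the 10.2% of all genes, and none without Vehicle 1 (0.254) or Vehicle 2 (0.248). The log2 difference of SREBF1 in Vector was -0.36 (0.0613), that of SREBF2 -0.13 (0.214) and that of NR1H3 -0.49 (0.0175, under the fold limit).

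The sterol branch shares acetyl-CoA and the SREBP system with fatty acid synthesis. It had the largest share of higher calls among these lists in each comparison with Vehicle. Both comparisons use the same Vehicle libraries, so their counts are not independent. Over all genes, 2.53% were called higher in GSK-LSD1 and 5.79% in Vector. In GSK-LSD1 10 of the 12 sterol genes rose, with a median log2 fold change of 0.83 beside 0.52 of the 10 fatty acid genes. HMGCS1, which makes HMG-CoA, went from 105 and 112 CPM to 331 and 299 CPM (log2 1.53, SE 0.063, edgeR adjusted p = 3.03e-07). IDI1 rose by 1.22 on the log2 scale and SQLE by 1.11. In Vector against Vehicle 8 of the 12 were called higher (median 0.67), among them HMGCS1 by 1.39, IDI1 by 0.91 and SQLE by 0.90, and this count fell to 0 without Vehicle 1 and to 1 without Vehicle 2. In EBF2-OE 0 of the 12 were called, with a median of 0.09.

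The supply of precursors and NADPH showed smaller differences. In GSK-LSD1 1 of 10 genes rose, against 2.53% of all genes. It was the citrate carrier SLC25A1 (log2 0.62, SE 0.050, edgeR adjusted p = 2.97e-05). Without the fold limit 6 of 10 were higher at an adjusted p under 0.05, against 9.86% of all genes. Among them were the NADPH-producing ME1 (0.41) and PGD (0.43). SLC25A1 lost its call in the fit over all 8 libraries (adjusted p = 0.0861) and fell short of the fold limit without Vehicle 2 (0.57). In Vector against Vehicle 1 of 10 rose, ME1 (0.69, edgeR adjusted p = 0.0262), beside 5.79% of all genes, and 0 did without Vector 3 (0.51, under the fold limit), Vehicle 1 (adjusted p = 0.133) or Vehicle 2 (0.177).

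Of the other acyl-CoA synthetases and uptake genes, 2 of 8 tested rose in GSK-LSD1, against 2.53% of all genes. ACSL1, a long-chain synthetase like ACSL5, went from 7.81 and 7.34 CPM in Vehicle to 26.6 and 24.0 CPM (log2 1.74, SE 0.11, edgeR adjusted p = 4.58e-06), and the acyl-CoA binding protein DBI rose by 0.62. Without Vehicle 2 the count fell to 1. In Vector against Vehicle 4 of 8 were called higher and 2 lower, against 5.79% and 10.2% of all genes. ACSL1 rose by 0.72 and the fatty acid binding protein FABP5 by 1.17 on the log2 scale, whereas the fatty acid transporters SLC27A1 and SLC27A2 fell by 1.08 and 0.78. Without Vehicle 1 or without Vehicle 2, 0 genes of this list were called in Vector in either direction.

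The other elongation and desaturation genes had 0 of 13 tested called in GSK-LSD1, and 1 without Vehicle 2 or without a low-count filter. Against Vehicle, Vector had 1 called higher (HSD17B12, the ketoacyl reductase of elongation, 0.70) and 1 lower (SCD5, the second stearoyl-CoA desaturase, -0.76). The other synthesis and malonyl-CoA genes had 0 of 7 called in GSK-LSD1, with a median of -0.23, a count that changed without Vehicle 2. In Vector 1 of them was called lower (HSD17B8, -0.95). In glycerolipid assembly 1 of 7 tested rose in GSK-LSD1, the phosphatidate phosphatase LPIN1 (0.69, edgeR adjusted p = 1.12e-04), and none was called in Vector (1 higher and 1 lower without Vector 2). Of 12 fatty acid oxidation genes, which break down what the 10 genes build, 0 were called in GSK-LSD1 (median 0.05) and 1 was lower in Vector (ECI1, -0.69). These Vector calls, of 1 in 13, 1 in 7 and 1 in 12 genes beside 5.79% of all genes called higher and 10.2% lower, were all lost without Vehicle 1 (edgeR adjusted p of 0.117 to 0.235) and without Vehicle 2 (0.0919 to 0.167), and ECI1 also without Vector 3 (-0.55, under the fold limit). In EBF2-OE no gene was called in any of these lists.

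**Figure D5:**
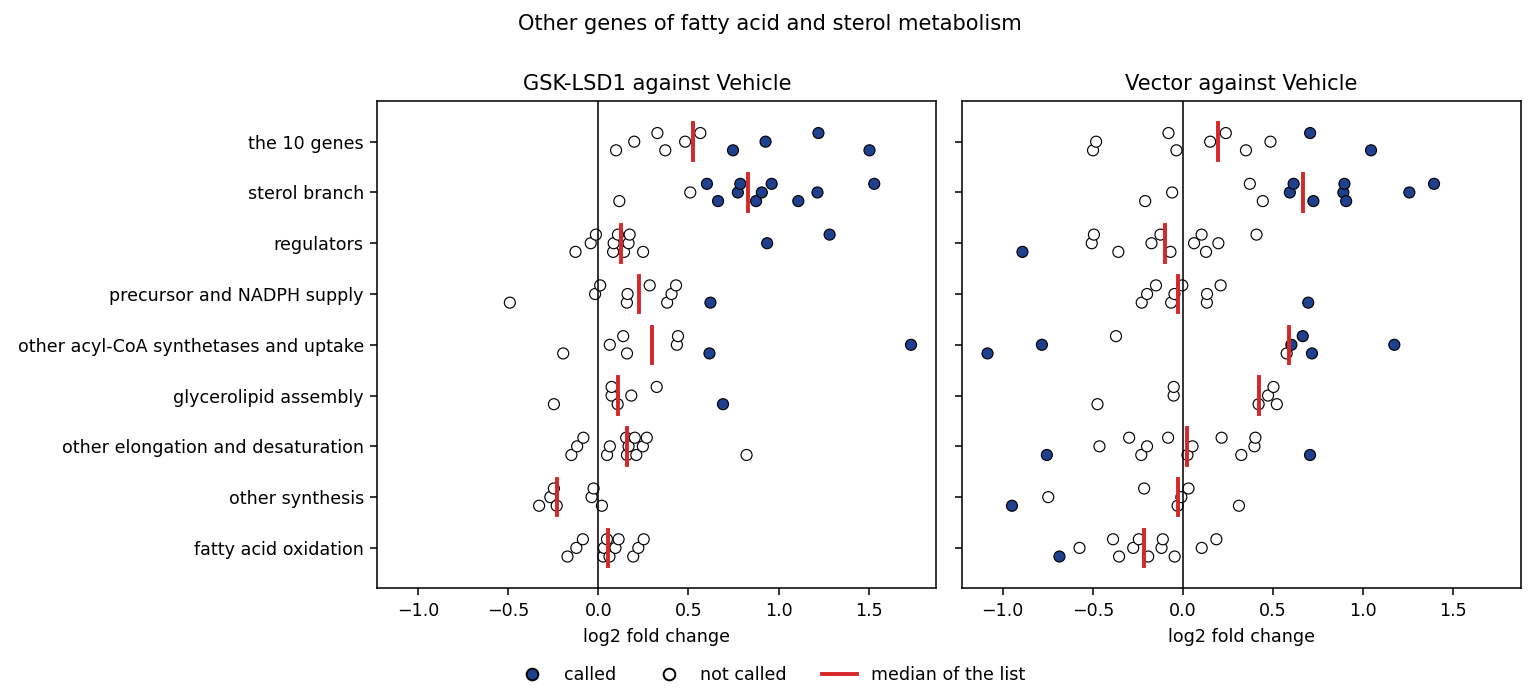
Log2 fold change of each tested gene (points, filled where called) by list, with the median of the list as a red line, in GSK-LSD1 against Vehicle and Vector against Vehicle, which share the Vehicle libraries. The sterol branch holds 10 and 8 filled points of 12, and fatty acid oxidation 0 and 1 of 12.

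The 10 genes differed in how closely they followed their own mean over the 8 libraries. That mean, of log2 CPM with each gene centred on its average, was lowest in Vehicle (-0.28 and -0.32) and highest in GSK-LSD1 (0.31 and 0.39), with Vector at -0.21 and -0.02 and EBF2-OE at -0.01 and 0.13. Pearson's r with this mean, of which each gene is itself a part, was 0.92 for ACACA, 0.91 for ACSS2, 0.89 for ACSL3, 0.88 for FASN, 0.85 for FADS1, 0.78 for SCD, 0.77 for ACSL5 and 0.72 for ACLY, and 0.27 for ELOVL6 and 0.23 for FADS2. FADS2 and ELOVL6 were thus apart from the rest, FADS2 being highest in the libraries numbered 3 (68.3 and 72.1 CPM) and ELOVL6 having few counts throughout. Among 10117 other genes with a mean of at least 10 CPM, the patterns most like this mean were those of BST2 (r = 0.99), RNASEK (0.98), PGD (0.98), MDH2 (0.96) and RPN2 (0.96). BST2, for example, had 219 and 214 CPM in Vehicle and 299 and 301 CPM in GSK-LSD1. These 8 points come from 4 groups that share depth and normalization, so r is given as a description.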

How the data were processed

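Poly(A) RNA of cells labelled as SW1990 was sequenced in 8 libraries as paired ends of 150 bases. Alignment to hg38 (HISAT2) and counting per gene (HTSeq) were done by the authors, and the deposited raw counts of 38637 genes were the input of all tests. The deposited TPM, which equals the count divided by gene length and rescaled, was used only to compare levels between genes. Per-sample columns of no listed sample numbered 0.

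The test was that of edgeR 4.0.16, run under R 4.3.3 (quasi-likelihood F test, two-sided, TMM normalization, filterByExpr with a minimum count of 10) on the 4 libraries of each comparison, with Benjamini-Hochberg adjustment over all genes tested. A call needed an adjusted p under 0.05 and a fold change above 1.5. SE and 95% interval of each log2 fold change come from the test statistic. CPM by library uses TMM factors of all 8 libraries. The difference of the GSK-LSD1 and EBF2-OE effects was a contrast in 1 fit over the 8 libraries. Libraries of 1 group differed by more than counting error (chi-square per degree of freedom 5.71 to 36.1), so none was a copy. The tests were also run on simulated data, where part of the known changes was missed and some unchanged genes were called, more of both in the settings of EBF2-OE against Vector and Vector against Vehicle than in that of GSK-LSD1.

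Alternatives were DESeq2 1.42.0, edgeR with the size factors of DESeq2, a fit over all 8 libraries, omission of the filter, a stricter filter (each library at 10 counts or more), no fold limit, unadjusted p-values, the replicate number as a block and leaving out each library. A crossed replicate block was added after seeing the data.

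The 10 genes and all lists were chosen with earlier results of these data known. The named genes are the 10, 7 regulators, EBF2, from each list up to 4 called genes with the largest change, and the 5 genes whose pattern over the libraries was most like the mean of the 10 (mean of at least 10 CPM). DBI, PGD, ZDHHC6 and the marker genes were named in addition after their values were seen. A gene that the rule names is not reported here. Promoter windows come from RefSeq (GRCh38.p14). Scripts used Python 3.11.15, numpy 2.4.6, pandas 2.3.3 and matplotlib 3.10.9.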

Additional observations from a re-analysis of the deposited data

How the results depend on the processing

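For single genes, 608 of the values under the alternatives kept direction and side of the threshold, 16 gained a call, 41 lost one and 15 changed sign. In EBF2-OE against Vector 0 of the 10 genes were called under every alternative, and over all genes higher and lower calls were 6 and 1 with DESeq2, 64 and 10 without a low-count filter, 4 and 1 with the replicate block, 114 and 34 with unadjusted p-values and 1 to 2 and 0 to 2 when each library was left out, with 2 higher in 1 fit over 8 libraries. In GSK-LSD1 against Vehicle, of which 406 genes were called higher and 328 lower, the 8-library fit called 2 of the 10 (85 higher and 15 lower in all), no fold limit called 8 (1583 and 1424 in all), DESeq2 called 186 lower and unadjusted p-values 510 lower. Leaving out each library gave 3 to 5 of the 10, 289 to 456 higher and 150 to 551 lower. In Vector against Vehicle leaving out each library gave 0 to 2 of the 10, 2 to 1581 higher and 10 to 2678 lower, and no fold limit gave 2172 higher. For the difference of effects, DESeq2 called 2 of the 10, no filter 3, and leaving out each library 0 to 2. Whether same-numbered libraries were handled together is not given in the sources used here. Over 10125 genes their deviations correlated at 0.32 in EBF2-OE and Vector and at -0.12 in GSK-LSD1 and Vehicle. A difference shared by number in EBF2-OE and Vector was left in the spread of the main test. The replicate block called EBF2 in EBF2-OE, and the same number of the 10 as without it (4 in GSK-LSD1, with 420 higher and 343 lower in all), and a crossed pairing, added after seeing the data, gave 377 higher and 311 lower. Vector and Vehicle share only the number 2, so no block could be fitted there. The changes of sign all came from leaving out 1 library, with log2 ranges in EBF2-OE of -0.037 to 0.15 for ACACA, -0.055 to 0.27 for ACSL3, -0.092 to 0.013 for ELOVL6, -0.0039 to 0.23 for FADS1, -0.12 to 0.23 for FADS2 and -0.14 to 0.47 for FASN, in GSK-LSD1 of -0.041 to 0.41 for ELOVL6 and -0.10 to 0.020 for SCAP, and in Vector against Vehicle of -0.024 to 0.31 for ACSL3 and -0.12 to 0.050 for FASN. With 1 library left out, the lone library of a group is assumed to vary like the others. With few counts, ELOVL6 and ACSL5 could show only large changes. The cause of these differences was not tested.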
